A study of Mus musculus with 16 samples.

Results

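The genes examined here were 9 genes of liver glycogen metabolism, defined by a list of names with no threshold on their values: Gys2, Gbe1, Ugp2, Pygl, Phka2, Phkg2, Ppp1r3b, Ppp1r3c and Ppp1r3g. All 9 were found among the 50559 gene symbols of the deposited count table and all 9 passed the filter on low counts, as did 18335 genes in all. They were measured by RNA sequencing in 16 liver libraries from male C57BL/6J mice, 4 in each of 4 groups, with library totals between 24317111 and 35820234 expected counts. Mice were 6 weeks old when the diets began and ate them for 10 weeks. The low-fat diet group (LFD, called chow in the labels) and the high-fat diet group (HFD) received control siRNA against luciferase at 10 mg/kg every 2 weeks together with methylcellulose by gavage, over the last 4 weeks. HFD + siRNA mice were given siRNA against Khk at 20 mg/kg with methylcellulose. HFD + Inhib mice were given control siRNA, and PF-06835919, an inhibitor of KHK, by gavage at 15 mg/kg 2 times a day. The siRNA carries a sugar tag that takes it into hepatocytes, whereas the inhibitor acts systemically. Some mice were injected with saline and others with insulin shortly before the livers were taken, and the labels used here do not say which library came from which.

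Glycogen is the branched store of glucose in the liver. It is built from UDP-glucose, which UDP-glucose pyrophosphorylase (Ugp2) makes, by glycogen synthase (Gys2 is the liver form), while the branching enzyme (Gbe1) adds the branch points. Liver glycogen phosphorylase (Pygl) releases glucose 1-phosphate again, once phosphorylase kinase, of which Phka2 encodes the liver regulatory alpha subunit and Phkg2 the liver catalytic gamma subunit, has phosphorylated it. Protein phosphatase 1 opposes the kinase by activating the synthase and switching off the phosphorylase, and it is held on glycogen by targeting subunits, among them the products of Ppp1r3b, Ppp1r3c and Ppp1r3g. Fructose 1-phosphate, which ketohexokinase (KHK) makes from fructose, is known to favour glycogen storage in the liver. These are features of the pathway known from other work.

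Khk itself checked the labels. LFD livers held 266 ± 59.9 CPM of Khk (counts scaled to the library total, mean ± SD, n = 4) and HFD livers 264 ± 39.8 CPM. The level was 12.7 ± 3.85 CPM with the siRNA and 120 ± 24.1 CPM with the inhibitor. The 4 HFD + siRNA libraries ranged from 9.14 to 18.1 CPM, and the 4 HFD + Inhib libraries from 94.6 to 152 CPM, below every HFD library (233 to 322 CPM). Against HFD the log2 fold change was -4.38 with the siRNA (SE 0.23, adjusted p = 1.9e-08) and -1.14 with the inhibitor (SE 0.20, adjusted p = 7.5e-04) in the quasi-likelihood test of edgeR. Every adjusted p given here comes from this test, except where DESeq2 is among the alternatives, and is adjusted after Benjamini and Hochberg over all tested genes.

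All 6 hepatocyte markers examined (Alb, Ttr, Apob, Cps1, Serpina1a, Hnf4a) were counted in every library, and summed to 83600 ± 6660 CPM in LFD, 74000 ± 6720 CPM in HFD, 80200 ± 5050 CPM with the siRNA and 49500 ± 1360 CPM with the inhibitor (n = 4). Alb, their most abundant gene, lay between 27700 and 32000 CPM in the HFD + Inhib libraries and between 42800 and 54200 CPM in the HFD libraries. Of the 6 markers, 3 were lower in HFD + Inhib than in HFD and 5 were lower than in HFD + siRNA, so the level of hepatocyte transcripts moved with the inhibitor group. Summed macrophage markers were at 196 ± 18.4 CPM in HFD and 148 ± 26.1 in HFD + Inhib, and summed stellate cell markers at 374 ± 37.4 and 281 ± 15.2 CPM, with 2 of 6 and 2 of 5 markers called lower and none higher. Summed endothelial markers were at 259 ± 17.3 CPM in HFD and 250 ± 7.94 in HFD + Inhib (1 of 5 higher, none lower) and lymphocyte markers at 3.16 ± 1.08 and 1.59 ± 0.347 CPM (2 of 5 lower). Bile duct markers summed to 10.8 ± 2.09 and 15.5 ± 5.36 CPM, with none of 4 called, and the pancreas list to 15.6 ± 2.68 and 5.64 ± 1.31 CPM. The pancreas sum was nearly all Cela1, the 1 gene of that list that was tested and called lower, with Cpa1, Pnlip and Ctrb1 at 0 in most libraries. In HFD + Inhib against HFD + siRNA, 4 of 6 macrophage and 2 of 5 stellate cell markers were lower. Cidec was higher in HFD than LFD (log2 fold change 3.04) and lower with the siRNA than HFD (-1.12), and Cela1 was higher in both comparisons (0.66 and 0.65). In HFD against LFD, 1 of 6 hepatocyte markers was lower and 1 of 5 stellate cell markers higher. With the siRNA, 1 of 6 hepatocyte markers was higher than in HFD. HFD + siRNA had 1 of 6 macrophage and 1 of 5 stellate cell markers higher than LFD, as were Cidec and Cela1 (1.92 and 1.31). Skeletal muscle markers, which matter because muscle has its own glycogen enzymes, summed to at most 0.154 CPM in any library. The adipocyte list summed to 45.6 ± 13.8 CPM in HFD + Inhib and 7.96 ± 5.62 in HFD, nearly all of it Cidec, a lipid droplet gene, with Lep at 0 in every HFD + Inhib library. In bulk liver, fewer cells of a type and less RNA per cell cannot be told apart, and the part of these shifts in the results below was not tested.

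Of all 16 libraries, LFD replicate 3 and HFD + Inhib replicate 4 stood apart in Krt19, Krt7 and Ctrb1. Krt19, a keratin of bile duct cells, had 474 counts in LFD replicate 3 and 294 in HFD + Inhib replicate 4, against 6 to 55 counts in the other 14. Ctrb1, a digestive enzyme precursor of the pancreas, had 206 and 51 counts in these libraries and at most 2 in any other, and Krt7, another keratin of bile duct cells, had 70 and 58 counts against 1 to 30. Not every gene of these 2 lists set them apart. Cpa1 and Pnlip of the pancreas were at 0 in both, and Cela1 was at 10.9 and 4.95 CPM. Sox9 of the bile duct was at 8.3 and 7.26 CPM, and it and Cela1 lay within the range of the others. The bile duct sum, which also holds Epcam, was 27.4 and 20.9 CPM there and at most 19.7 CPM in any other library. They are called the high-Krt19 libraries from here on. Each call of a named gene that was lost without them is given below, an alternative chosen after seeing the data.

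The diet comparison (HFD against LFD) asked how the glycogen genes respond to a high-fat diet before any treatment of KHK. Ugp2 and Phka2 were higher in HFD, none of the 9 was lower, and 7 did not pass the test. Across all tested genes 18.4% were called in this comparison, 9.58% higher and 8.8% lower. The median log2 fold change was 0.03 over the 9 genes and -0.01 over all tested genes.

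Ugp2, which makes the UDP-glucose that the synthase consumes, had 150, 287, 221 and 360 CPM in the 4 LFD libraries and 400.0, 384, 429 and 472 CPM in the 4 HFD libraries. Every HFD library thus lay above every LFD library, although the LFD libraries spread over a 2.39-fold range. The mean rose from 255 ± 89.8 to 421 ± 38.6 CPM, a 1.65-fold difference (log2 fold change 0.73, SE 0.20, adjusted p = 0.0191). The call held in 11 of 17 alternative fits, over which the adjusted p ran from 0.00261 to 0.134. It was lost without LFD replicate 3 (adjusted p = 0.0599), without HFD replicate 4 (adjusted p = 0.0525), and without both high-Krt19 libraries (log2 fold change 0.66, adjusted p = 0.0746). The fit to these 2 groups alone lost it too (adjusted p = 0.0538). So did the GC and length offsets described further on, without and with the replicate block (log2 fold changes 0.35 and 0.36, adjusted p = 0.12 and 0.134).

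Phka2, the regulatory subunit of phosphorylase kinase, had 31.1, 38.5, 36.5 and 38.7 CPM in LFD and 45.2, 44.6, 41.3 and 46.3 CPM in HFD. The groups did not overlap, and the change was small but tight (1.23-fold, log2 fold change 0.29, SE 0.08, adjusted p = 0.018). It was called in 15 of 17 alternatives (adjusted p from 0.00402 to 0.0558). The exceptions were the fit to these 2 groups alone (log2 fold change 0.29, adjusted p = 0.0558) and the one without both high-Krt19 libraries (log2 fold change 0.30, adjusted p = 0.0521).

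Neither enzyme that lengthens or branches the chain passed the test. Gys2 had 81.7, 124, 100.1 and 123 CPM in LFD and 123, 116, 139.6 and 162 CPM in HFD (log2 fold change 0.34, 95% interval 0.01 to 0.67, adjusted p = 0.141). Gbe1 averaged 114 ± 23.2 CPM with LFD and 151 ± 15.5 CPM with HFD (log2 fold change 0.40, 95% interval 0.07 to 0.73, adjusted p = 0.0822), and was called in 2 of 17 alternatives, without LFD replicate 4 (adjusted p = 0.0311) and with the replicate number as a block (adjusted p = 0.0131), over a range of adjusted p from 0.0131 to 0.323. Both intervals lay above 0, and the adjustment over all genes left both short of the threshold. Pygl averaged 522 ± 36.8 CPM with LFD and 466 ± 37.4 CPM with HFD (log2 fold change -0.16, adjusted p = 0.277). Ppp1r3b and Ppp1r3c had log2 fold changes of 0.03 and -0.02, with 95% intervals from -0.51 to 0.57 and from -0.64 to 0.60. Phkg2, the catalytic subunit partner of Phka2, was at 13.5 ± 2.25 and 12.2 ± 0.535 CPM (adjusted p = 0.332).

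**Figure D1:**
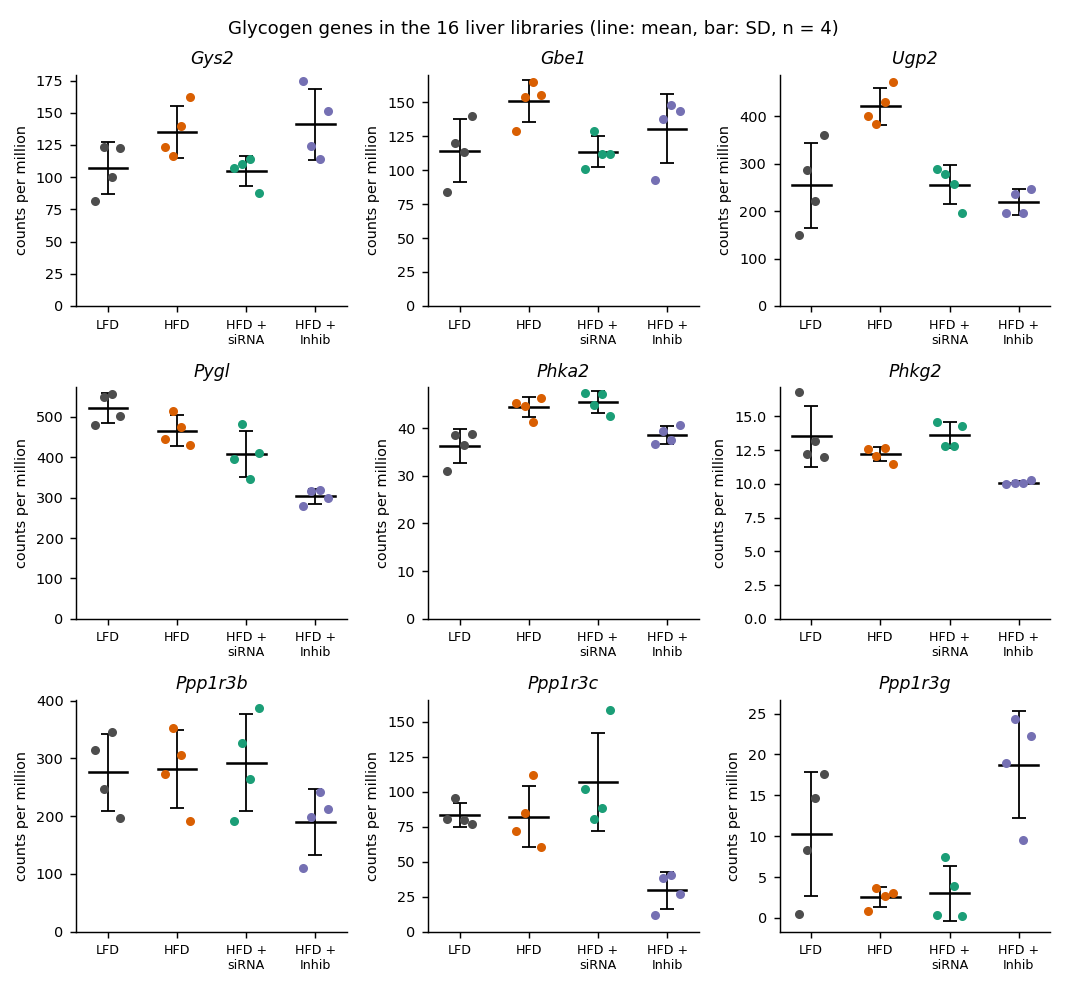
CPM (vertical axes, from 0, or just below it for Ppp1r3g) of the 9 glycogen genes in the 16 liver libraries by group; each point is a library, the line is the mean and the bar the SD of 4. Pygl and Phkg2 lie lowest in HFD + Inhib, Ppp1r3c falls to 12 to 40.8 CPM there and Ppp1r3g reaches 9.49 to 24.3 CPM, while Ugp2 stands highest in HFD.

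The knockdown comparison (HFD + siRNA against HFD) asked what loss of KHK in hepatocytes does to these genes. Ugp2 was lower and the other 8 genes did not pass the test, while 11.7% of all tested genes did, 5.2% higher and 6.55% lower. The 4 HFD + siRNA libraries held 289, 278, 257 and 197 CPM of Ugp2, all below the lowest HFD library at 384 CPM. The mean of 255 ± 41.1 CPM equalled that of LFD to 3 digits, and against HFD the log2 fold change was -0.72 (SE 0.20, adjusted p = 0.0268). Against LFD it was 0.00, with a 95% interval from -0.41 to 0.42. The drop from HFD was called in 11 of 17 alternatives (adjusted p from 0.00397 to 0.188) and lost its call when HFD replicate 3 or 4 or HFD + siRNA replicate 3 or 4 was left out (adjusted p from 0.0546 to 0.0815). The GC and length offsets, without and with the replicate block, lost it as well (log2 fold changes -0.35 and -0.34, adjusted p = 0.149 and 0.188).

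Gys2 in HFD + siRNA had 107, 109.9, 114 and 87.8 CPM, with no overlap with HFD, yet its log2 fold change of -0.37 (SE 0.16) came to an adjusted p of 0.132. Gbe1 did not pass the test either (log2 fold change -0.41, adjusted p = 0.0957). It was called in 2 of 17 alternatives (adjusted p from 0.0206 to 0.31), the fit to these 2 groups alone and the one with the replicate number as a block. Pygl was at 408 ± 56.4 CPM against 466 ± 37.4 CPM in HFD (log2 fold change -0.19, adjusted p = 0.235), and its highest HFD + siRNA library, at 482 CPM, lay inside the HFD range. Phka2 kept a level of 45.4 ± 2.26 CPM, close to the 44.4 ± 2.14 CPM of HFD, with a 95% interval of the log2 difference from -0.13 to 0.20. It stood above LFD in this group too (log2 fold change 0.33, adjusted p = 0.0172), a call that held in 13 of 17 alternatives (adjusted p from 0.00247 to 0.0708). The call was lost without LFD replicate 1 (adjusted p = 0.0506), HFD + siRNA replicate 1 (adjusted p = 0.0547) or HFD + siRNA replicate 3 (adjusted p = 0.0544). It was also lost in the fit to HFD + siRNA and LFD alone (log2 fold change 0.33, adjusted p = 0.0708). The PP1 targeting subunits had wide 95% intervals, from -0.48 to 0.60 for Ppp1r3b and -1.61 to 2.02 for Ppp1r3g on the log2 scale. Changes within these bounds remain possible. Ppp1r3c had a log2 fold change of 0.38 (SE 0.29, adjusted p = 0.435).

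The inhibitor comparison (HFD + Inhib against HFD) asked the same of a systemic inhibitor of the kinase activity of KHK. Pygl, Ugp2 and Ppp1r3c were lower and Ppp1r3g was higher, 4 of the 9 genes, against a background of 18.2% of all tested genes, 9.8% higher and 8.42% lower. The median log2 fold change of the 9 was -0.27, against 0.00 to 2 decimals over all tested genes. The HFD libraries serve as controls for both treatments, so the treatments are set against each other directly further on.

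Pygl, which breaks glycogen down, had 445, 515, 474 and 430.0 CPM in HFD and 279, 315, 318 and 299.6 CPM in HFD + Inhib. The inhibitor libraries formed a narrow band below all others: the highest of them held 318 CPM, and the lowest library of any other group, in HFD + siRNA, 345 CPM. The mean of 303 ± 17.9 CPM was 1.54-fold below HFD (log2 fold change -0.62, SE 0.10, adjusted p = 4.4e-04) and lower than LFD by 0.78 on the log2 scale (log2 fold change -0.78, adjusted p = 2.8e-05). Both differences were called in all 17 alternatives tried for each.

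Ugp2 fell to 196, 236, 197 and 247 CPM (mean 219 ± 26.5 CPM), a log2 fold change of -0.94 from HFD (SE 0.20, adjusted p = 0.00338) that held in all 17 alternatives. Against LFD its log2 fold change of -0.22 did not pass the test (adjusted p = 0.413).

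Gys2 did not pass the test in this comparison, and its groups overlapped. Its 4 HFD + Inhib libraries had 175, 124, 114 and 151 CPM (mean 141 ± 27.6 CPM), a log2 fold change of 0.06 with a 95% interval from -0.27 to 0.39 (adjusted p = 0.835). Gbe1 was at 130 ± 25.4 CPM (log2 fold change -0.21, adjusted p = 0.389), and was called in 1 of 17 alternatives (adjusted p from 0.00435 to 0.758), the one with the replicate block and GC and length offsets together (log2 fold change -0.36). Pygl was thus called lower in this group while Gys2 was not called, and whether their changes differ was not tested. Their ratio within each library is free of the scaling between libraries. The ratio of Gys2 to Pygl counts was 0.627, 0.394, 0.358 and 0.505 in HFD + Inhib (mean 0.471 ± 0.121). It was 0.205 ± 0.0358 in LFD, 0.294 ± 0.0627 in HFD and 0.261 ± 0.0521 with the siRNA. The HFD + Inhib and HFD ranges overlapped at the edge, since the highest HFD library had a ratio of 0.377, whereas no library of LFD (0.17 to 0.245) or HFD + siRNA (0.214 to 0.33) reached the HFD + Inhib range. These ratios are a description and were given no test.

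**Figure D2:**
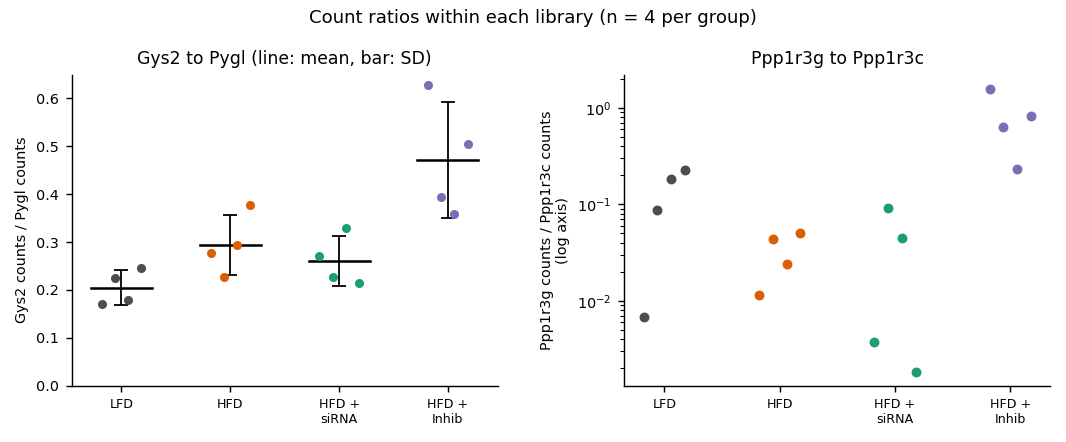
Count ratios within each library by group, 4 libraries each: Gys2 to Pygl on a linear axis (line, mean; bar, SD) and Ppp1r3g to Ppp1r3c on a log axis. The mean Gys2 to Pygl ratio is 0.471 in HFD + Inhib and 0.205 to 0.294 in the other groups, and the Ppp1r3g to Ppp1r3c ratio is 0.233 to 1.58 in HFD + Inhib, above every other library.

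Of the PP1 targeting subunits, Ppp1r3c was lower and Ppp1r3g higher under the inhibitor, and Ppp1r3b did not pass the test. Because Ppp1r3c and Ppp1r3g gave the largest changes of the 9 genes, one down and one up, and Pygl fell beside them, the 250 bases before their transcription starts are shown, from RefSeq promoters on GRCm38.p6, 5′ to 3′ along each gene's strand. Capitals mark matches, on either strand, to CACGTG (an E-box), TGACG (the core of a cAMP response element), CCAAT or AGGTCA (the core of many nuclear receptor sites). No matches overlap in these 3 sequences.
Ppp1r3c promoter, chr19:36736605-36736854, minus strand: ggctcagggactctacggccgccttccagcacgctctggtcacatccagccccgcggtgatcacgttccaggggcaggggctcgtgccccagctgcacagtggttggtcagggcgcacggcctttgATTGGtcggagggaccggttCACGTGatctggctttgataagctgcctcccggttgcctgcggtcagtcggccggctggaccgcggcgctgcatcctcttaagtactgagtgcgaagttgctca
Ppp1r3g promoter, chr13:35967656-35967905, plus strand: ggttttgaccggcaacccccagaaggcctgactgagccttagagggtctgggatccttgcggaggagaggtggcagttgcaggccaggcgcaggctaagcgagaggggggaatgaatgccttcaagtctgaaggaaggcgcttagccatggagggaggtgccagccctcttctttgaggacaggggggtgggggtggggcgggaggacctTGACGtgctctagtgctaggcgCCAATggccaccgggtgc
Pygl promoter, chr12:70227684-70227933, minus strand: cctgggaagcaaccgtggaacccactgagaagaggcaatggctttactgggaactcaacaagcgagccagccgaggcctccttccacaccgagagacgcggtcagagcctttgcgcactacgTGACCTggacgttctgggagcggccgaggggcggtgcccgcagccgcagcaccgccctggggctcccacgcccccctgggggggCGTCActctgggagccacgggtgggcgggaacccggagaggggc
Promoters were listed for 7 of the 9 genes, 8 sequences in all since Ugp2 has 2 starts. The Ppp1r3c sequence holds CACGTG 104 bases before the start, the sole E-box among the 8, and a reversed CCAAT 124 bases before it. The Ppp1r3g sequence holds TGACG 40 bases before the start and CCAAT 18 bases before it. The Pygl sequence holds a reversed AGGTCA at 128 bases and a reversed TGACG at 44 bases before the start. Over 32851 promoters of the same length, 6.021% hold CACGTG, 17.765% TGACG, 33.85% CCAAT and 14.024% AGGTCA. The forkhead motif TGTTTAC is held by 3.166% of them and was not matched in the 8. Matches of this kind describe letters and not binding.

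Ppp1r3c, which encodes the subunit called PTG, had 80.4, 95.8, 80.0 and 77.3 CPM in LFD, 72.2, 84.5, 112 and 60.8 CPM in HFD, and 102, 80.5, 88.2 and 158 CPM in HFD + siRNA. In HFD + Inhib it had 12.0, 38.5, 40.8 and 26.8 CPM. All 4 inhibitor libraries lay below all 12 others, and no other pair of groups separated. The mean of 29.5 ± 13.2 CPM was 2.79-fold below HFD (log2 fold change -1.48, SE 0.30, adjusted p = 0.0025), and was lower than LFD by a similar factor of 2.83 (adjusted p = 0.0011). Both held in all 17 alternatives, with log2 fold changes from HFD between -1.68 and -1.22.

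Ppp1r3g had the widest spread of the 9 over the 16 libraries (SD of log2 CPM 2.07). Per kilobase its mean level was below that of every other member in LFD, HFD and HFD + siRNA, and above Phkg2 in HFD + Inhib (7.85 against 5.49 CPM per kilobase). Its values were 0.545, 8.28, 14.7 and 17.7 CPM in LFD, 0.828, 3.67, 2.66 and 3.05 CPM in HFD, 0.38, 7.43, 3.94 and 0.293 CPM in HFD + siRNA, and 18.9, 24.3, 9.49 and 22.3 CPM in HFD + Inhib. The counts behind them ran from 10 to 744, and within LFD alone the highest library was 32.4 times the lowest. HFD + Inhib lay above every HFD and HFD + siRNA library but overlapped LFD. From HFD the rise was 7.32-fold (log2 fold change 2.87, SE 0.84, adjusted p = 0.0252), and the 95% interval of the log2 value ran from 1.09 to 4.65. It was called in 11 of 17 alternatives (adjusted p from 9.8e-04 to 0.077) and lost without any one of HFD replicates 1, 3 and 4 and HFD + Inhib replicates 2 and 4 (adjusted p from 0.0521 to 0.077), or without both high-Krt19 libraries (log2 fold change 2.78, adjusted p = 0.0581). Against LFD the log2 fold change of 0.85 did not pass the test (adjusted p = 0.404), and HFD against LFD gave -2.02 (adjusted p = 0.104), called only without LFD replicate 1 (log2 fold change -2.40, adjusted p = 0.0415) among 17 alternatives with adjusted p from 0.0415 to 0.239. The labels used here do not say which mice received insulin, so its part in this spread cannot be told apart.

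Ppp1r3b, which encodes the main liver subunit called GL, averaged 276 ± 66.9 CPM with LFD, 281 ± 67.7 CPM with HFD, 293 ± 83.6 CPM with the siRNA and 191 ± 57.1 CPM with the inhibitor. The groups overlapped throughout, and the log2 fold change of -0.56 from HFD (95% interval -1.10 to -0.02) did not pass the test after adjustment (adjusted p = 0.148). Per kilobase of transcript, which lets levels be set side by side, the HFD means of the subunits were 64.1 CPM per kilobase for Ppp1r3b, 30.2 for Ppp1r3c and 1.07 for Ppp1r3g. In HFD + Inhib these levels were 43.5, 10.8 and 7.85, so that the ratio of Ppp1r3g to Ppp1r3c counts was 1.58, 0.632, 0.233 and 0.833 in the 4 inhibitor libraries and 0.0115 to 0.0502 in HFD. It reached 0.229 in LFD, just under the lowest inhibitor library, and 0.0923 in HFD + siRNA. On the same per-kilobase scale Pygl and Ugp2 were the most abundant of the 9 in HFD, at 156 and 157, followed by Ppp1r3b, Gys2 at 50.9, Gbe1 at 45.7, Ppp1r3c, Phka2 at 10.2, Phkg2 at 6.63 and Ppp1r3g.

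Of the kinase subunits, neither Phka2 nor Phkg2 passed the test against HFD. Phka2 was at 36.7, 39.4, 37.5 and 40.7 CPM in HFD + Inhib, each below the lowest HFD library at 41.3 CPM, with a log2 fold change of -0.20 (adjusted p = 0.0892). Phkg2 had 9.96, 10.1, 10.1 and 10.3 CPM, the tightest group of any member, with an SD of 0.134 CPM. All 4 lay below the lowest HFD library at 11.5 CPM (log2 fold change -0.27, adjusted p = 0.0732), a difference called in 1 of 17 alternatives, the fit to these 2 groups alone (adjusted p = 0.0309, with a range from 0.0309 to 0.247). Against LFD the Phkg2 difference passed the test (log2 fold change -0.42, adjusted p = 0.00429) and was called in 15 of 17 alternatives. That call was lost under the GC and length offsets, without and with the replicate block (log2 fold changes -0.13 and -0.12).

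**Figure D3:**
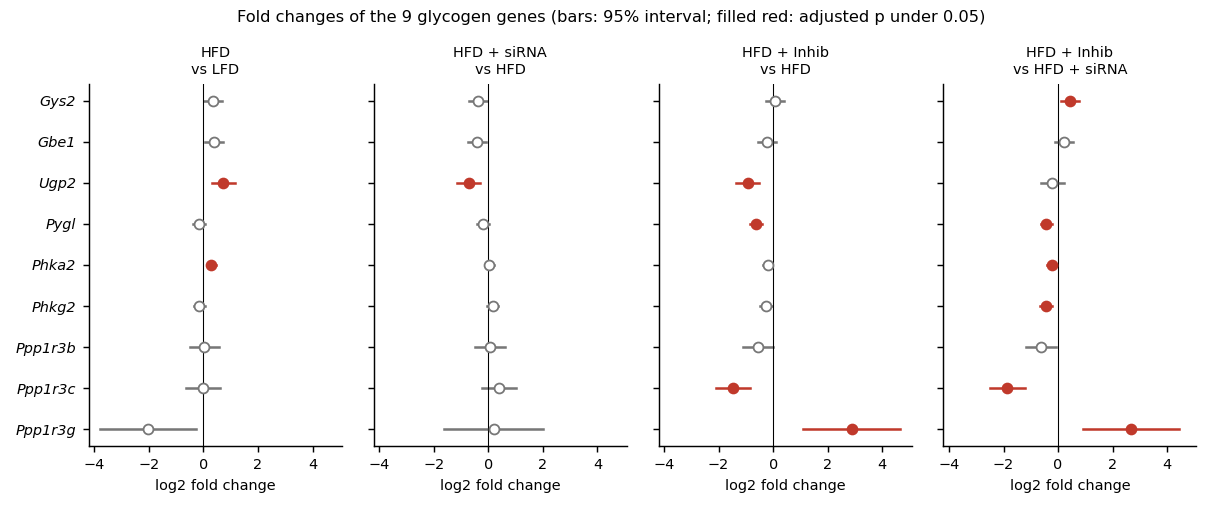
Log2 fold changes of the 9 glycogen genes in 4 comparisons (horizontal axes) with 95% intervals from the edgeR fit; filled red points have an adjusted p under 0.05. Ppp1r3g has the widest intervals, and the HFD + Inhib panels hold the changes of Ppp1r3c (-1.48 and -1.86) and Ppp1r3g (2.87 and 2.67).

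The comparison of HFD + Inhib with HFD + siRNA asked where inhibition of KHK and its knockdown differ. Gys2 and Ppp1r3g were higher with the inhibitor and Pygl, Ppp1r3c, Phka2 and Phkg2 were lower, 6 of 9 genes. This comparison called 33.8% of all tested genes, 17.3% higher and 16.6% lower. Pygl was 1.35-fold lower (log2 fold change -0.43, SE 0.10, adjusted p = 0.00403) and Ppp1r3c 3.63-fold lower (log2 fold change -1.86, SE 0.30, adjusted p = 2.4e-04), without overlap and in all 17 alternatives.

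Ppp1r3g was 6.35-fold higher (log2 fold change 2.67, 95% interval 0.90 to 4.43, adjusted p = 0.021), a call lost without HFD + siRNA replicate 1 (adjusted p = 0.0527) or replicate 4 (adjusted p = 0.0535). Over all alternatives its adjusted p ran from 0.00662 to 0.0535.

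Gys2 was 1.35-fold higher (log2 fold change 0.43, SE 0.16, adjusted p = 0.0409), but the lowest inhibitor library, at 113.8 CPM, and the highest siRNA library, at 113.9 CPM, touched, and the call held in 9 of 17 alternatives (adjusted p from 0.0214 to 0.12). It was lost without HFD + siRNA replicate 1 or 4, without HFD + Inhib replicate 1 or 4, with both high-Krt19 libraries left out (log2 fold change 0.40, adjusted p = 0.106), and with the replicate number as a block (adjusted p = 0.0642).

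Phkg2 was lower by 0.43 on the log2 scale (log2 fold change -0.43, adjusted p = 0.00381) and Phka2 by 0.24 (log2 fold change -0.24, adjusted p = 0.0296). The Phkg2 call held in 15 of 17 alternatives (adjusted p from 0.00129 to 0.229). It was lost under the GC and length offsets, without and with the replicate block (log2 fold changes -0.17 and -0.17). The Phka2 call held in 9 of 17 alternatives, with adjusted p from 0.0209 to 0.139, and was lost without any one of HFD + siRNA replicates 1, 2 and 3 and HFD + Inhib replicates 1 and 3 (adjusted p from 0.0501 to 0.0907), with no filter (adjusted p = 0.106) and under the GC and length offsets described further on. Ppp1r3b (log2 fold change -0.62, adjusted p = 0.0727) was called in 2 of 17 alternatives (adjusted p from 0.0352 to 0.238), DESeq2 and the fit without HFD + siRNA replicate 1. Ugp2, which was lower than HFD in both treatments, did not differ detectably between them (log2 fold change -0.22, 95% interval -0.64 to 0.20, adjusted p = 0.415).

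Against LFD, HFD + siRNA had Phka2 higher and Pygl lower, with 8.63% of all tested genes called, 4.75% higher and 3.88% lower. The Pygl value (log2 fold change -0.36, adjusted p = 0.0381) rested on overlapping groups and was called in 9 of 17 alternatives (adjusted p from 0.0057 to 0.127), not without LFD replicate 2 or 3 or HFD + siRNA replicate 1, 3 or 4 (adjusted p from 0.0793 to 0.116), with no filter (adjusted p = 0.0793), in the fit to these 2 groups alone (adjusted p = 0.116) or without both high-Krt19 libraries (log2 fold change -0.32, adjusted p = 0.127). HFD + Inhib had Pygl, Ppp1r3c and Phkg2 lower than LFD and none of the 9 higher, with 36.9% of all tested genes called, 18.8% higher and 18.2% lower. There 5 of 6 hepatocyte (median log2 fold change -0.84), 3 of 5 endothelial, 2 of 6 macrophage, 2 of 5 stellate cell and 1 of 5 lymphocyte markers were lower, as was Cela1 (-0.91). Higher were 1 endothelial marker and Cidec (5.59), and the part of these shifts was not tested. Gys2 did not pass in that comparison (log2 fold change 0.40, adjusted p = 0.0537) and did in 6 of 17 alternatives (adjusted p from 0.0283 to 0.217), among them those without LFD replicate 2 or 4 or HFD + Inhib replicate 2 or 3 (adjusted p from 0.0283 to 0.0448).

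Base composition moved with several of these comparisons. Over the 3876 genes at an average log2 CPM of at least 5, which are no independent replicates, the Spearman correlation of log2 fold change with GC content was -0.51 for HFD against LFD, 0.51 for HFD + siRNA against HFD, -0.21 for HFD + Inhib against HFD and -0.48 between the treatments. Ugp2 has a transcript GC content of 39.1% and Gbe1 of 42.5%, against a median of 49.8% over tested genes, and Phkg2 and Ppp1r3g have 57.2% and 57.6%. With offsets that removed the trend with GC and length in each library, Ugp2 was no longer called in HFD against LFD (log2 fold change 0.35, adjusted p = 0.12) or in HFD + siRNA against HFD (log2 fold change -0.35, adjusted p = 0.149). The same offsets left its fall under the inhibitor in place and made it lower than in HFD + siRNA (log2 fold change -0.76, adjusted p = 0.00111) and LFD (log2 fold change -0.76, adjusted p = 9.9e-04).

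Under these offsets Phkg2 was no longer called against HFD + siRNA (log2 fold change -0.17, adjusted p = 0.191) or LFD (log2 fold change -0.13, adjusted p = 0.35). Gys2 and Phka2 also lost their calls between the treatments (adjusted p = 0.0785 and 0.134). Their log2 fold changes were 0.37 and -0.17 under the offsets, against 0.43 and -0.24 without them. Gbe1 changed sign between HFD + Inhib and HFD + siRNA (-0.13 from 0.20). The Pygl and Ppp1r3c differences of HFD + Inhib and the Ppp1r3g rises kept both direction and call.

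**Figure D4:**
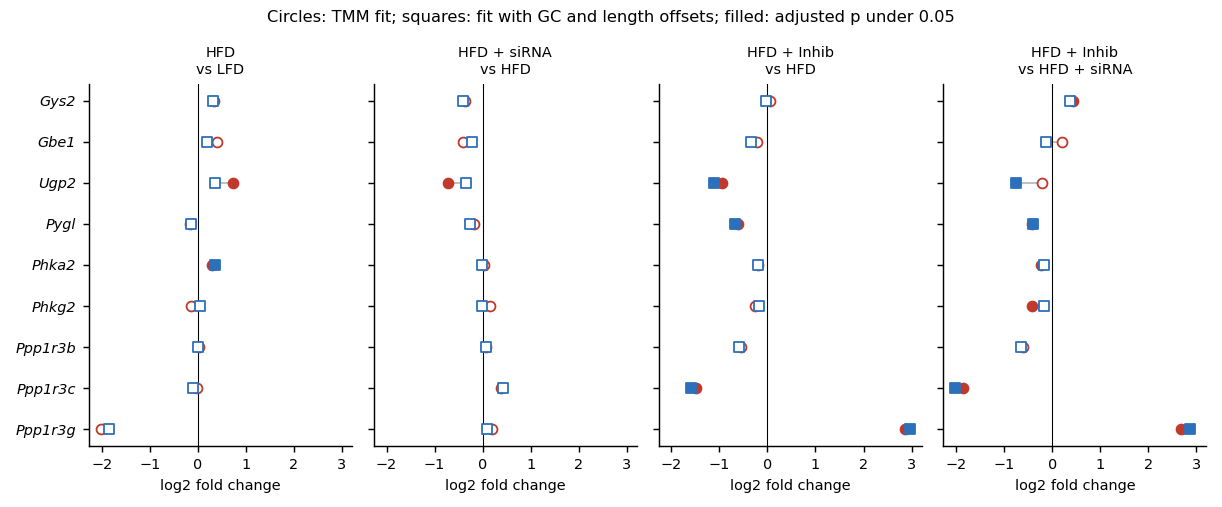
Log2 fold changes of the 9 glycogen genes (horizontal axes) from the edgeR fit with TMM scaling (circles) and with offsets for GC content and length (squares); filled symbols have an adjusted p under 0.05. Ugp2 moves most, from 0.73 to 0.35 for HFD against LFD and from -0.22 to -0.76 between the treatments, while Pygl shifts by little, as from -0.62 to -0.67 for HFD + Inhib against HFD.

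The rest of the pathway was followed in 43 further genes: other glycogen machinery (25), glucose phosphorylation and release (9) and signals to glycogen enzymes (9). Of these 39 were tested. The 4 too low to test were Phkg1, Ppp1r3a, Ppp1r3d and Ppp1r1a, with Ppp1r3a, the muscle targeting subunit, at 5 counts or fewer in every library. In HFD against LFD 7 of the 39 were higher and 2 lower, in HFD + siRNA against HFD 1 and 4, in HFD + Inhib against HFD 3 and 2, and in HFD + Inhib against HFD + siRNA 8 and 6. These counts stand beside 18.4%, 11.7%, 18.2% and 33.8% of all tested genes called in the same comparisons, and were near those shares. Their median log2 fold changes were 0.05, 0.07, 0.01 and -0.02, near those of all tested genes (-0.01, 0.02, 0.00 and -0.04).

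Under HFD both partners of the laforin and malin pair were higher. Epm2a encodes laforin, a phosphatase that removes phosphate from glycogen, and rose from 4.93 ± 0.847 to 8.65 ± 0.7 CPM (log2 fold change 0.81, adjusted p = 9.6e-04) and stood at 8.2 ± 1.1 and 8.79 ± 0.658 CPM in the treated groups. Nhlrc1, which encodes malin, a ubiquitin ligase that binds laforin, had the largest called change of the further lists in this comparison, from 0.782 ± 0.247 to 1.56 ± 0.314 CPM (log2 fold change 0.99, SE 0.27, adjusted p = 0.0187). It lay below the abundance that the rule for named genes asks for, was named after its values were seen, and was not followed through the alternatives. Pygb, the brain phosphorylase, fell (log2 fold change -0.71, adjusted p = 0.00619), as did Gaa, the lysosomal enzyme that degrades glycogen (-0.49, adjusted p = 0.013). Ppp1r2, which encodes an inhibitor of PP1, rose (0.45, adjusted p = 0.00634). Gaa was called in 16 of 17 alternatives, the exception being the one without both high-Krt19 libraries (log2 fold change -0.47, adjusted p = 0.051). Under the GC and length offsets Gaa was called at a smaller value (-0.28, adjusted p = 0.0236). Ppp1r2 was called in 15 of 17, and lost its call with these offsets (log2 fold change 0.20, adjusted p = 0.0838), also with the replicate block added (0.21, adjusted p = 0.0708).

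Ppp1cb, a catalytic subunit of the PP1 that the Ppp1r3 proteins hold on glycogen, moved in 3 of the 4 comparisons. LFD livers held 77.3 ± 19.1 CPM, HFD livers 117 ± 5.95 CPM, those with the siRNA 70.6 ± 6.98 CPM and those with the inhibitor 134 ± 7.76 CPM. It was higher in HFD than LFD (log2 fold change 0.60, adjusted p = 0.00575), lower with the siRNA (-0.73, adjusted p = 0.00273) and higher with the inhibitor than with the siRNA (0.93, adjusted p = 6.6e-05). All 3 calls held in all 17 alternatives, although the GC and length offsets shrank the values to 0.33, -0.41 and 0.52, and its transcript has a GC content of 40.8%. Ppp1r2 was likewise lower with the siRNA than HFD (-0.51) and higher with the inhibitor than with the siRNA (0.60), as was Pgm2l1, which makes glucose 1,6-bisphosphate (-0.55 and 0.83). The offsets shrank the Ppp1r2 values to -0.27 and 0.24, and that of Pgm2l1 between the treatments to 0.43, all still called. Pgm2l1 did not pass in HFD against LFD (log2 fold change 0.32, adjusted p = 0.0816). Pgm2l1 lost its siRNA call under the offsets (-0.24, adjusted p = 0.133), and the Calm2 decrease with the siRNA (-0.34, adjusted p = 0.0362), in a gene for the calmodulin subunit of phosphorylase kinase, held in 8 of 17 alternatives (adjusted p from 0.015 to 0.129) and was lost without any one of HFD replicates 2, 3 and 4 and HFD + siRNA replicates 1, 3 and 4. Prkaca, a catalytic subunit of protein kinase A, which switches phosphorylase kinase on, was at 60.9 ± 6.42 CPM in HFD and 90.4 ± 6.53 CPM in HFD + siRNA (log2 fold change 0.57, adjusted p = 0.00165) and at 60.5 ± 4.41 CPM in HFD + Inhib.

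Under the inhibitor Slc37a4, the carrier that brings glucose 6-phosphate into the endoplasmic reticulum for release as glucose, was at 47.4 ± 10.9 CPM against 105 ± 13.8 CPM in HFD and 85.8 ± 5.46 CPM in HFD + siRNA (log2 fold change -1.14 from HFD, adjusted p = 2.7e-04, and -0.85 from HFD + siRNA, adjusted p = 0.00154). Gckr, a regulatory protein that binds fructose 1-phosphate, was at 82.3 ± 9.81 CPM, below 122 ± 6.34 CPM in HFD (log2 fold change -0.57, adjusted p = 3.4e-04) and 133 ± 7.66 CPM in HFD + siRNA (-0.70, adjusted p = 3.1e-05). Both genes were called in all 17 alternatives. Phkb, the beta subunit of phosphorylase kinase, rose from 24.6 ± 1.66 to 33.4 ± 2.42 CPM (log2 fold change 0.44, adjusted p = 0.00487), while Phka2 and Phkg2, subunits of the same enzyme, had values of -0.20 and -0.27 that did not pass. Gsk3b, a kinase that inactivates glycogen synthase, also rose (0.37, adjusted p = 0.00591).

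G6pc, the catalytic subunit of glucose 6-phosphatase, averaged 431 ± 98.5 CPM with LFD, 259 ± 104 CPM with HFD, 330 ± 119 CPM with the siRNA and 299 ± 84.3 CPM with the inhibitor, and passed the test in none of the 4 comparisons, with log2 fold changes from -0.73 to 0.35. Its value for HFD against LFD (adjusted p = 0.0918) was called in 3 of 17 alternatives (adjusted p from 0.0309 to 0.246), DESeq2 and the fits with the replicate number as a block.

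**Figure D5:**
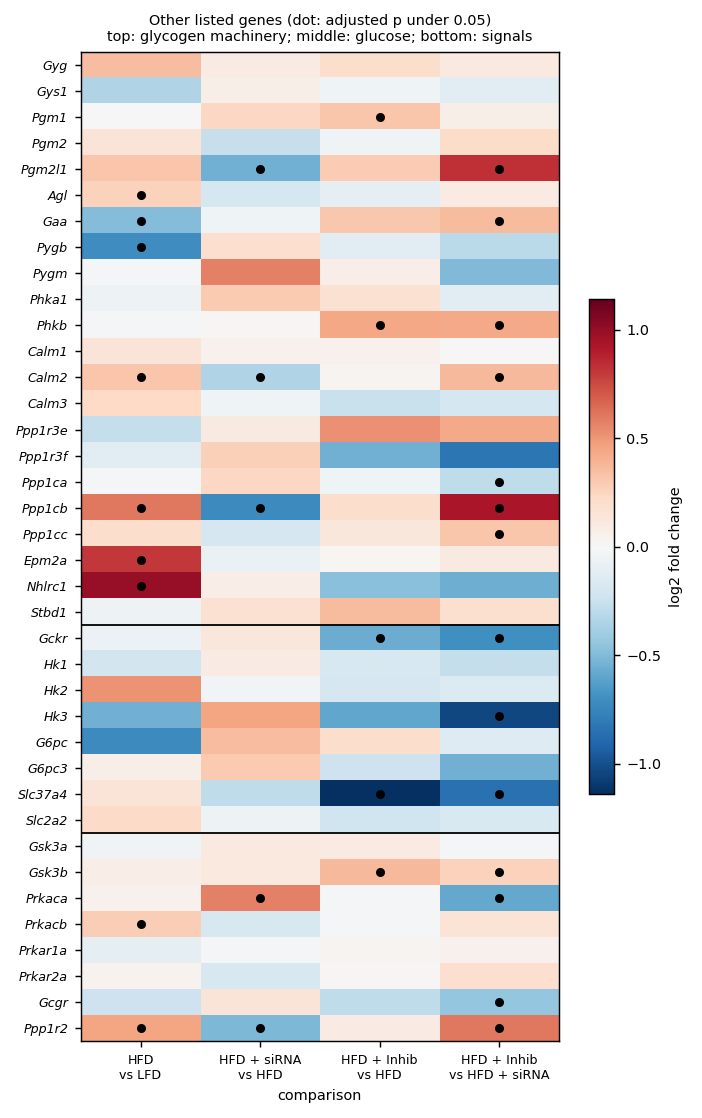
Log2 fold changes (colour scale) of the tested genes of the further lists (rows, 1 of the 39 not shown) in 4 comparisons (columns); black dots mark an adjusted p under 0.05. Slc37a4 and Gckr are lower in both inhibitor columns, and Ppp1cb, Ppp1r2 and Pgm2l1 are lower with the siRNA and higher with the inhibitor than with the siRNA.

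The genes whose profile over the 16 libraries lay closest to a member were found as the smallest root mean square difference of centred log2 CPM. For Ppp1r3c they were Tnfaip8l1 (0.39) and Gm36041 (0.42), against an SD of Ppp1r3c itself of 0.90, and Tnfaip8l1 fell with the inhibitor by nearly as much (log2 fold change -1.28 from HFD, adjusted p = 4.8e-06), whereas Gm36041 did not pass the test (-0.87, adjusted p = 0.135). For Ugp2 they were Frk, a tyrosine kinase gene (0.19), and Tnfsf10, which encodes the ligand TRAIL (0.21), each higher in HFD than LFD and lower in both treatments. Pygl lay closest to Pnpla6, a phospholipase gene (0.13), and Rassf8 (0.14). For Ppp1r3g the nearest were 4933431G14Rik (1.35) and Lepr, the leptin receptor (1.39), which is a loose likeness beside the SD of 2.07. Lepr rose with the inhibitor too (log2 fold change 2.39 from HFD, adjusted p = 3.2e-05), whereas 4933431G14Rik did not pass the test (1.06, adjusted p = 0.184). Gys2 lay closest to Tspan12 (0.12) and Nsun6 (0.13), Phka2 to Laptm4b (0.08) and Rnf14 (0.08), and Phkg2 to Hcfc1 (0.08) and Top3b (0.09). The members share the 16 libraries with these genes, and likeness of profile is a description of those libraries.

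Of all 50-base words of their transcripts in the GRCm38 annotation, 0.53% of Pygl, 0.14% of Ppp1r3b and 0.94% of Phkg2 also occur in another gene, and none for the other 6. Ugp2, Phka2 and Phkg2 are overlapped on the opposite strand by Gm12043, Gm15243 and Ccdc189. Whether the counting used strand is not given in the sources used here, so the values of these 3 genes may hold reads of the partners.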

How the data were processed

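The 16 mouse liver RNA libraries were grouped by their labels into LFD, HFD, HFD + siRNA and HFD + Inhib (4 each). The authors deposited 1 table of RSEM expected counts per gene symbol, neither normalized nor whole (15.1% of values have decimals). The submitters' processing notes name STAR, RSEM and the genome build mm39. The study's methods describe a probe-based assay that does not match these values, so the library kit is not given in the sources used here.

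Expected counts were rounded, genes filtered with filterByExpr (minimum count 10, minimum total 15), scaled by TMM and fitted with edgeR's quasi-likelihood test (edgeR 4.0.16, R 4.3.3) over all 16 libraries at once, with Benjamini-Hochberg adjustment over 18335 tested genes and a threshold of 0.05. CPM are counts scaled to the TMM-adjusted library total, and log2 CPM had a prior count of 2. Intervals are 95% intervals of the fitted log2 fold change. Alternatives were DESeq2 1.42.0, RLE size factors, no filter, 10 counts in every library, a fit to the 2 groups compared, replicate number added as a block, offsets for GC content and transcript length (for the 86.5% of tested genes with both in GENCODE on GRCm38), and each library left out in turn. The fits were also run on simulated data, the outcome of which is not given here. Same-group libraries differed by more than sampling noise (chi-square per gene 20.5 to 152), so none appeared to be deposited in duplicate. Nothing states that each library is a separate mouse, and p-values set the group differences against the spread between libraries. The reference coordinates are of another build than mm39 and were used for names, GC, length, overlaps and promoter sequences.

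The members and lists were chosen with earlier results of these data known. All 9 members and Khk are named. From the further lists, genes are named that were called without overlap at an average log2 CPM of at least 1 in 1 of 4 comparisons (at most 5 per comparison, by size of change), with Gckr and G6pc (the older symbol of G6pc1), and for each member called, the 2 genes most like it. Another gene of these lists is counted with them and not reported here.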

Additional observations from a re-analysis of the deposited data

Results flagged for a closer look

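The Ppp1r3c level of LFD replicate 2, at 95.8 CPM, stood apart from the other 3 LFD libraries (77.3 to 80.4 CPM), with a gap of 0.833 of the group's range. It was the 1 value to do so among 44 groups of 4 libraries examined, and chance flags about 1 in 20.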

How the results depend on the processing

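A count is said to have moved here when it differed by over 1.5 times, and a fold change of 0.00 has no direction. Of the 54 log2 fold changes of the 9 genes (6 comparisons), direction and side of the threshold were kept in 54 under RLE size factors, 53 with 10 counts in every library, 52 under DESeq2, 52 with no filter, 50 with the replicate block, 49 without both high-Krt19 libraries, 48 with 2 groups only, 40 under the GC and length offsets and 37 under the block with these offsets. With 1 library left out in turn, 369 values kept both, 30 lost the call, 7 gained it and 26 changed sign. Except where a value or the fewer samples of an alternative show it, the cause was not tested. Ppp1r3g had the lowest counts of the 9 genes, down to 10 in 1 library.

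Replicate numbers were shared by the groups. The 24 same-numbered pairs had r from -0.132 to 0.336, with a mean of 0.041 and 6 pairs over 0.1. The 72 differently numbered pairs had a mean of -0.0137, and 4 of 16 libraries were closest to their own number. Same-numbered libraries thus did not deviate together as a set, and were not treated as pairs apart from the fits with the block. With the replicate block, HFD + siRNA against HFD called 2 of the 9 genes in place of 1 and the Gbe1 log2 fold change of HFD + siRNA against LFD was 0.01 in place of -0.01.

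Counts of the 9 genes called in HFD against LFD (2) were 0 with 2 groups only (5 at an unadjusted p under 0.05 in edgeR), 1 under the offsets, 1 under the block with offsets and 0 without both high-Krt19 libraries (3 at an unadjusted p under 0.05), and 0 to 3 over all fits that left libraries out, with 1 without LFD replicate 3 or HFD replicate 4. The further lists (9) then gave 5 to 10 and all tested genes (3370) 1745 to 3691, with 5 and 1745 without both high-Krt19 libraries. In HFD + siRNA against HFD the 9 genes (1) gave 2 with 2 groups only, 0 under the offsets (3 at an unadjusted p under 0.05), 0 under the block with offsets (4) and 0 to 1 with libraries left out. The further lists (5) gave 3 under the block with offsets, and all genes (2154) gave 1424 under the offsets and 1100 to 2008 with libraries left out. In HFD + siRNA against LFD the 9 genes (2) gave 1 with no filter, 0 with 2 groups only (2 at an unadjusted p under 0.05), 1 without both high-Krt19 libraries and 0 to 2 with libraries left out. There the further lists (5) gave 3 with 2 groups only and 3 to 5 with libraries left out, and all genes (1582) gave 808 and 917 to 1456. In HFD + Inhib against LFD all genes (6767) gave 4398 without both high-Krt19 libraries and up to 6830 with 1 library left out.

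Log2 fold changes that changed sign were all uncalled. For HFD against LFD, Khk (-0.01) was 0.01 with 10 counts in every library, 0.22 under the offsets, 0.23 under the block with offsets and -0.12 to 0.15 with libraries left out, Phkg2 (-0.15) was 0.05 and 0.05 under the offsets without and with the block, Gckr (-0.07) 0.04 and 0.04, and Ppp1r3b (0.03) -0.01 under the block with offsets. For HFD + siRNA against HFD, under the offsets without and with the block, Phka2 (0.03) was -0.02 and -0.02, Phkg2 (0.16) -0.01 and -0.01, Gckr (0.13) -0.01 without it and Ppp1r3g (0.20) -0.04 with it. Under the same pair of fits Gys2 (0.06) was -0.03 and -0.02 for HFD + Inhib against HFD, and Gbe1 was -0.13 and -0.15 against HFD + siRNA (0.20) and -0.16 and -0.16 against LFD (0.19). With libraries left out, Ppp1r3b ran from -0.10 to 0.18 for HFD against LFD, -0.12 to 0.20 for HFD + siRNA against HFD and -0.09 to 0.23 for HFD + siRNA against LFD. Likewise Ppp1r3c ran from -0.20 to 0.11 for HFD against LFD, Ppp1r3g from -0.80 to 0.58 for HFD + siRNA against HFD, Gys2 from -0.06 to 0.15 for HFD + Inhib against HFD, and G6pc from -0.32 to 0.15 between the treatments. For HFD + siRNA against LFD, Gys2 ran from -0.15 to 0.03, Gbe1 from -0.14 to 0.10 and Phkg2 from -0.05 to 0.12.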
